A study of Zea mays with 6 samples.

Results

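The tonoplast intrinsic proteins (TIPs) are aquaporins of the vacuolar membrane, and 5 of their genes, those of the TIP1 and TIP2 subfamilies, were followed in leaf 3 of the maize inbred line A661. The members were every probe set paired with exactly 1 gene whose symbol or RefSeq synonym was tip1, tip2, tip2a, tip2b or por2. That gave 5 probe sets for 5 genes, 1 for each gene, of 17555 probe sets on the array, 1452 of them paired with a single gene and 1108 genes in all. The RefSeq names are TIP1-1 for tip1 (NCBI gene 541675), TIP1-2 for tip2 (NCBI gene 541893), TIP2-1 for tip2a (NCBI gene 541894), TIP2-2 for tip2b (NCBI gene 541895) and TIP2-3 for por2 (NCBI gene 541687). The gene called tip2 therefore belongs by name to the TIP1 group, which has 2 members, and the TIP2 group has 3. RefSeq lists 5 genes of these subfamilies, so each has a probe set. The members were chosen by gene name, with the log2 changes between the sections already known. Their differences are therefore given as a description, without a printed p-value, and calls at a threshold count as no support.

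The vacuole fills most of a mature plant cell, and TIPs let water, and in some subfamilies other small solutes, pass its membrane. Cells enlarge by filling the vacuole with water, and TIP1 transcripts are typically abundant in expanding and vascular tissue. In Arabidopsis, TIP2 proteins also conduct ammonia.

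The section of interest was the distal, chlorophyll-less section of the leaf (CL, 3 arrays), and the control was the proximal, chlorophyll-containing section (CC, 3 arrays). Every plant was of line A661 and had grown for 3 weeks at 15 °C and then 1 week at 25 °C. All had 14 h of light, at 228 µmol per square metre per second, and 10 h of dark. From each section, 2 cm next to the transition were taken in 3 biological replicates. Each replicate gave 1 single-colour Affymetrix array, with values on a log2 scale after RMA, a method that corrects background, equalises arrays and combines the probes of a set. Chlorophyll content and position along the blade changed together and cannot be told apart. The same holds for anything that goes with position, such as tissue age or the temperature while the tissue formed. Sections are also mixtures of cells, in which fewer cells of a type and less RNA per cell cannot be told apart.

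Array medians lay between 6.29 and 6.36 and correlations over probe sets within a section were 0.989 to 0.995. Of the leaf markers of C4 tissue, pep1 and me3 were at the bright end in both sections. The values were 13.27 in CL and 13.22 in CC for pep1, and 13.17 in CL and 13.14 in CC for me3. The mesophyll marker ppt1 was less bright, at percentile 82.5 of all probe sets in CL and 74.7 in CC. So was NCBI gene 541677, matched by the symbol pdk1 alone, at percentile 72.4 in CL and 65.6 in CC. These less bright genes were higher in CL, with log2 changes of 0.75 for ppt1 and 0.56 for NCBI gene 541677. The symbol pdk1 also matched NCBI gene 542759, the gene matched by ppdk1. That gene was at the bright end, at 13.32 in CL and 13.27 in CC, with a log2 change of 0.05 (SE 0.07). Whether NCBI gene 541677 encodes the C4 enzyme was not checked. The photosystem I subunit gene psad1, a marker of chloroplast-bearing tissue, was at 10.12 ± 0.39 on CL arrays, against 11.86 ± 0.26 on CC arrays (SD of 3 arrays per section). The dim end of the arrays lay lower in CL, with a 25th percentile of 3.95 to 3.97 against 4.04 to 4.15 in CC.

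All 5 members had a lower mean in CL than in CC. The difference was largest for tip2b, intermediate for tip2a and tip1, and small for por2 and tip2. In 3 members, tip2a, tip2b and por2, every CL array lay below every CC array, which held for 26.8% of all probe sets. The same 3 of 5 were called lower in CL by limma's linear model at an adjusted p under 0.05 over all probe sets, against 15.2% of all probe sets, and 0 were called higher, against 15.9%. The count was 1 or 2 with any single array left out, and tip2b was always among them. Since the members were chosen with these changes known, the calls are a description and no test of the members. The members' median log2 change (CL minus CC) was -0.40, beside -0.05 over all probe sets and -0.08 over the 1108 genes.

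**Figure D1:**
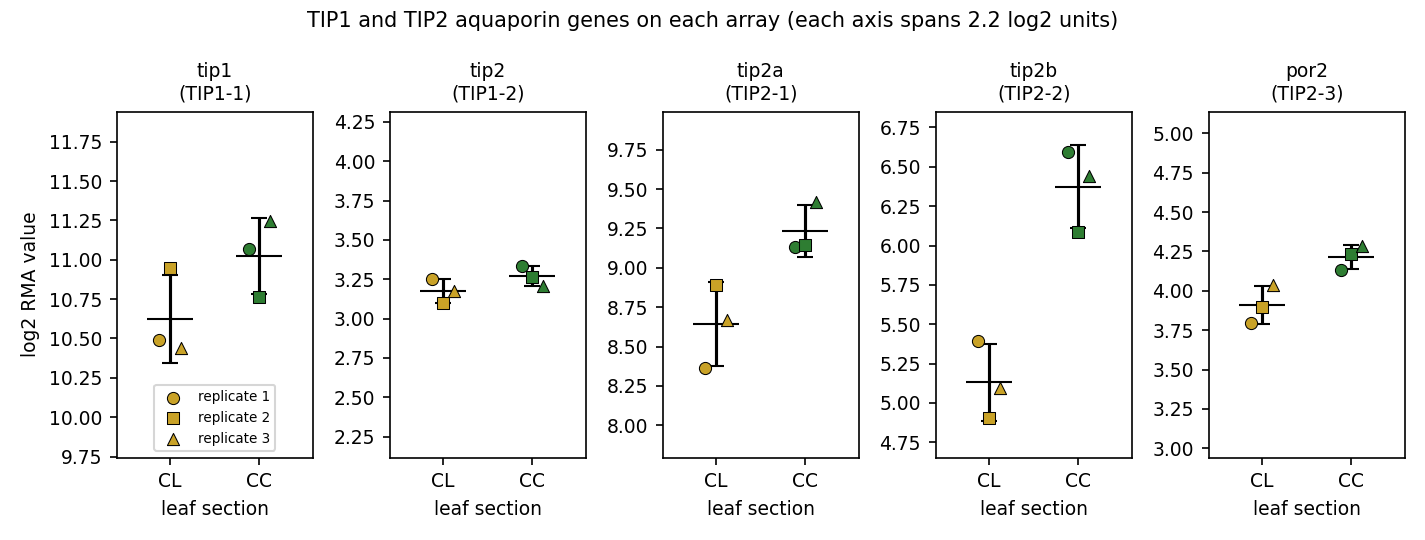
Log2 RMA values of the 5 genes on each array, with CL left of CC; points are arrays, shaped by replicate number, and bars are the mean ± SD (n = 3). The sections are separated for tip2a, tip2b and por2 and overlap for tip1 and tip2, and the gap is widest for tip2b, where the highest CL array reads 5.39 and the lowest CC array 6.08.

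Within the TIP1 group, tip1 encodes TIP1-1, a water channel known in maize from expanding and vascular cells. It read 10.49, 10.95 and 10.44 on the CL arrays and 11.07, 10.77 and 11.24 on the CC arrays. The sections overlapped, since CL replicate 2 stood above CC replicate 2. CL averaged 10.63 ± 0.28, against 11.03 ± 0.24 for CC (SD of 3 arrays per section), and the log2 change of -0.40 (SE 0.18) had a 95% interval of -0.82 to 0.02. Its probe set was among the brightest in both sections, at percentile 96.8 of all probe sets in CC, far from the dim end.

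The other TIP1 gene, tip2, encodes TIP1-2. It read 3.25, 3.10 and 3.18 on the CL arrays and 3.33, 3.27 and 3.21 on the CC arrays. These values overlapped and stood at percentile 13.8 of all probe sets in CL and 13.2 in CC, near the floor of the arrays. Its log2 change was -0.09 (SE 0.08), with a 95% interval of -0.29 to 0.11, and it turned to 0.044 after a further quantile normalization. At that brightness RMA compresses differences, so the probe set does not bound how far the transcript may have changed.

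The TIP2 group was lower in CL throughout. Its brightest probe set was that of tip2a, which encodes TIP2-1. It read 8.36, 8.89 and 8.67 on the CL arrays and 9.13, 9.15 and 9.42 on the CC arrays. The sections did not overlap, but the gap between the highest CL array and the lowest CC array was 0.24, smaller than the SD of the CL arrays. CL averaged 8.64 ± 0.27, against 9.23 ± 0.16 for CC (SD of 3 arrays per section). CL stood at 0.664 times the CC level, which is a log2 change of -0.59 (SE 0.15). The call was lost without CL replicate 1 (-0.45), CL replicate 3 (-0.60), CC replicate 2 (-0.63) and likewise CC replicate 3 (-0.50).

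The widest difference was that of tip2b, which encodes TIP2-2. It read 5.39, 4.91 and 5.10 on the CL arrays and 6.60, 6.08 and 6.44 on the CC arrays. The sections were separated by 0.69, more than the SD of either. CL averaged 5.13 ± 0.24, against 6.37 ± 0.26 for CC (SD of 3 arrays per section). CL stood at 0.423 times the CC level, which is a log2 change of -1.24 (SE 0.17). Only 1.70% of all probe sets had a lower change. Among all probe sets it stood at percentile 38.4 in CL, against 50.9 in CC, the middle of the range. Its call held in each of the 13 alternatives in which it was tested, with changes between -1.39 and -1.13.

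The third TIP2 gene, por2, encodes TIP2-3, an aquaporin in spite of a symbol that also serves porins and protochlorophyllide reductases. It read 3.79, 3.90 and 4.04 on the CL arrays and 4.13, 4.24 and 4.28 on the CC arrays. The sections did not overlap, with a gap of 0.10, and CL averaged 3.91 ± 0.12, against 4.22 ± 0.08 for CC (SD of 3 arrays per section). The log2 change was -0.31 (SE 0.10). The probe set stood at percentile 24.3 in CL and 26.6 in CC, where the arrays as a whole read lower in CL. With probe sets split by mean level into 4 classes of equal size, por2 falls into the second from the dim end. In that class the median log2 change was -0.11, and 30.0% had every CL array below every CC array. After a further quantile normalization the change was -0.18 and was not called, nor was it when any of the 6 arrays was left out.

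**Figure D2:**
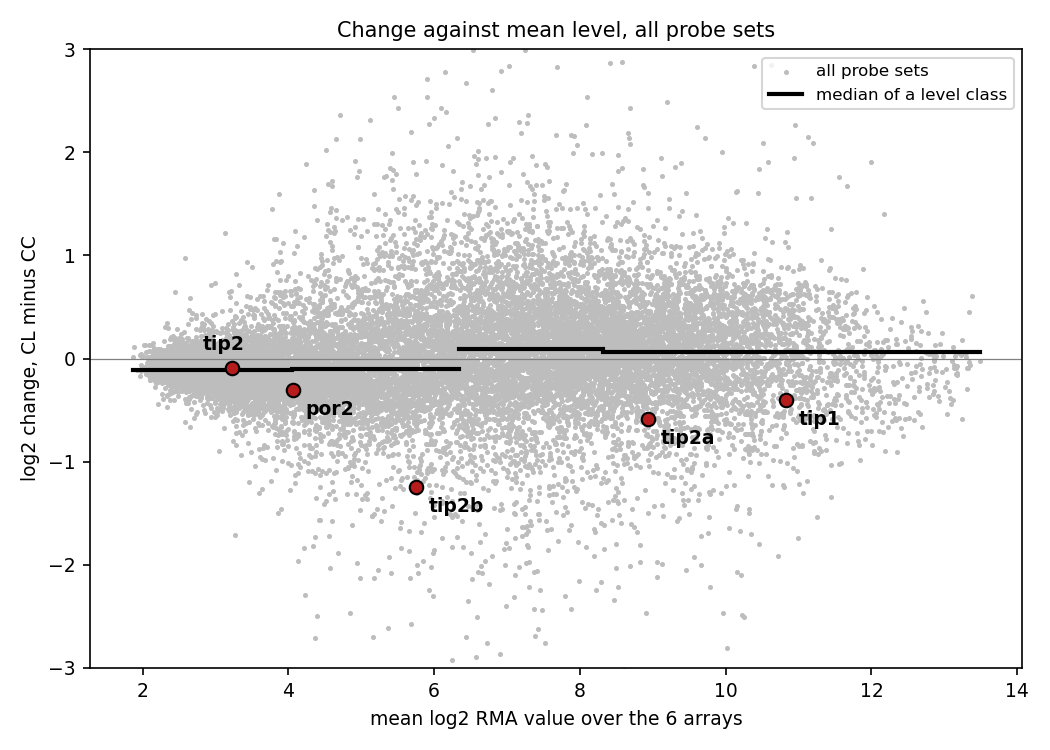
Log2 change (CL minus CC) against the mean log2 RMA value over the 6 arrays, for all probe sets (grey) and the 5 genes (red), with the median change of 4 equal classes of mean level as black lines; 32 probe sets lie outside the plotted range. The class medians are -0.11, -0.11, 0.09 and 0.06 from dim to bright, tip2 lies at the median of its class, and por2, tip2b, tip2a and tip1 lie below theirs.

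The same classes set a scale for the other changes. The brightest, which holds tip1 and tip2a, had a median log2 change of 0.06, and 18.7% of its probe sets were called lower in CL. The class of tip2b and por2 had 18.0% called lower. In the dimmest class, which holds tip2, 9.20% were called lower and the median change was -0.11.

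Relative to its own mean in CC, the TIP1 group stood at -0.28, -0.13 and -0.34 on the 3 CL arrays and at 0.05, -0.13 and 0.08 on the CC arrays. The TIP2 group stood at -0.76, -0.71 and -0.67 on the CL arrays and at 0.01, -0.12 and 0.11 on the CC arrays. The TIP2 group was therefore lower on every CL array. The 3 values lie close together because tip2a and tip2b deviated in opposite directions, by -0.28 and 0.26 from their CL means on CL replicate 1 and by 0.25 and -0.23 on CL replicate 2. In contrast, CL replicate 2 of the TIP1 group reached the level of CC replicate 2. The mean log2 change was -0.71 for the TIP2 group and -0.25 for the TIP1 group.

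The difference between the groups was carried largely by tip2b, and in part by tip2. Within single arrays, TIP2 minus TIP1 shifted by -0.47 between CL and CC, and by -0.41 to -0.53 when an array was left out. That shift was -0.20 without tip2b, -0.31 without the dim probe set of tip2 and -0.16 with tip2 counted in the TIP2 group. Between the bright members of each group alone, tip2a minus tip1, the shift was -0.19, and the sections overlapped (-2.13, -2.05 and -1.77 in CL, against -1.94, -1.62 and -1.82 in CC). For tip2b minus tip1 the shift was -0.84 and the sections did not overlap. For tip2b minus tip2a it was -0.65, with -2.97, -3.99 and -3.57 in CL against -2.54, -3.06 and -2.98 in CC, so CL replicate 1 lay inside the CC range.

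**Figure D3:**
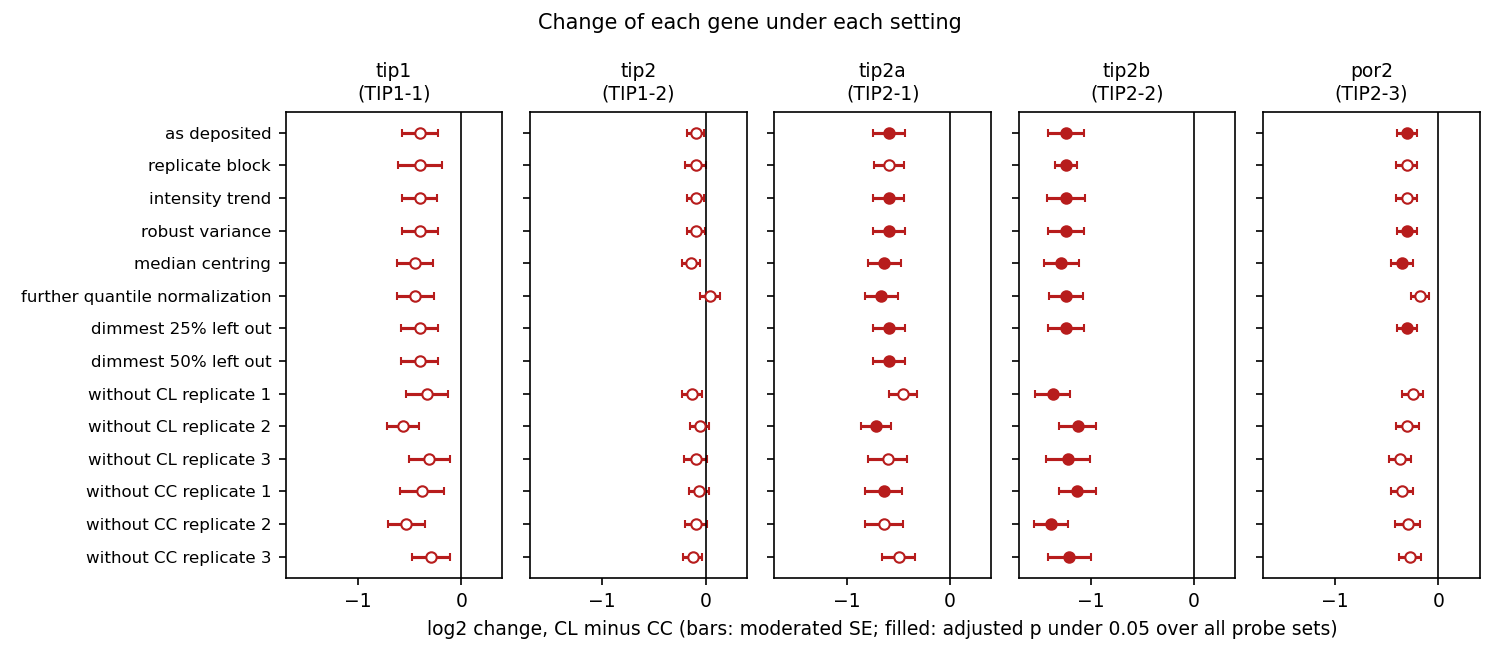
Log2 change (CL minus CC) of each gene under each setting, with the moderated SE as bars; filled points passed an adjusted p of 0.05 over all probe sets, and a missing point was not tested. Points of tip2b are filled wherever it was tested, those of tip2a and por2 are open in several settings, and those of tip1 and tip2 are open in all.

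The remaining 5 TIP genes on the array, looked up after their values were seen, differed in both directions. TIP4-1 (NCBI gene 541897) read 7.40, 6.57 and 6.78 in CL and 7.78, 7.52 and 7.28 in CC, with overlapping sections and a log2 change of -0.61 (SE 0.23). TIP4-4 (NCBI gene 542647), at the dim end, read 3.13, 3.29 and 3.36 in CL and 3.50, 3.65 and 3.78 in CC, a log2 change of -0.38 (SE 0.11) without overlap. The TIP3 genes, which in Arabidopsis and other species serve the storage vacuoles of seeds, had log2 changes of 0.23 (SE 0.32) for TIP3-1 and 0.09 (SE 0.11) for TIP3-2, both with overlapping sections. On CL replicate 2 TIP3-1 read 5.15, whereas its other 5 arrays read 3.93 to 4.20. In the RefSeq assembly Zm-B73-REFERENCE-NAM-5.0 the gene for TIP5-1 (tip5, NCBI gene 541900) is the next gene after por2. Its log2 change was -0.05 (SE 0.08), with 4.94 to 5.10 in CL and 5.04 to 5.11 in CC.

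Aquaporins of other membranes were set beside the TIPs from lists of gene names. Of 10 plasma membrane aquaporin (PIP) genes, 6 fell, 1 rose and 3 did not pass limma's adjusted p of 0.05 over all genes, beside 20.2% of the 1108 genes that fell and 18.9% that rose. The list's median log2 change was -0.51. The largest falls were those of PIP1-5 (NCBI gene 542014) at -1.92 (SE 0.28), PIP2-4 (NCBI gene 541890) at -1.46 (SE 0.20) and PIP2-3 (NCBI gene 541889) at -0.62 (SE 0.18). PIP1-3 (NCBI gene 541886) was the gene that rose, by 0.51 (SE 0.10), with 4 of its 5 probe sets called higher and the dimmest at -0.19. That rise was not called without CL replicate 3. The count of falls was 3 without CL replicate 3, CC replicate 2 or CC replicate 3.

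Of 5 genes for NIPs, aquaporins that carry silicic acid and other small solutes, 4 fell, 0 rose and 1 did not pass. They were led by the silicon channel gene NIP2-1 (Lsi1, NCBI gene 542643) at -2.01 (SE 0.21), NIP2-3 at -1.05 (SE 0.25) and NIP1-1 at -0.60 (SE 0.15). The count was 1 without CL replicate 2, CL replicate 3, CC replicate 2 or CC replicate 3. None of the 3 SIP genes, a small subfamily of internal membranes, passed in limma, and 0 had an unadjusted p under 0.05, with log2 changes of -0.14 to 0.15 and SIP1-1 at 0.15 (SE 0.09). No difference between the TIPs and these lists was tested.

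**Figure D4:**
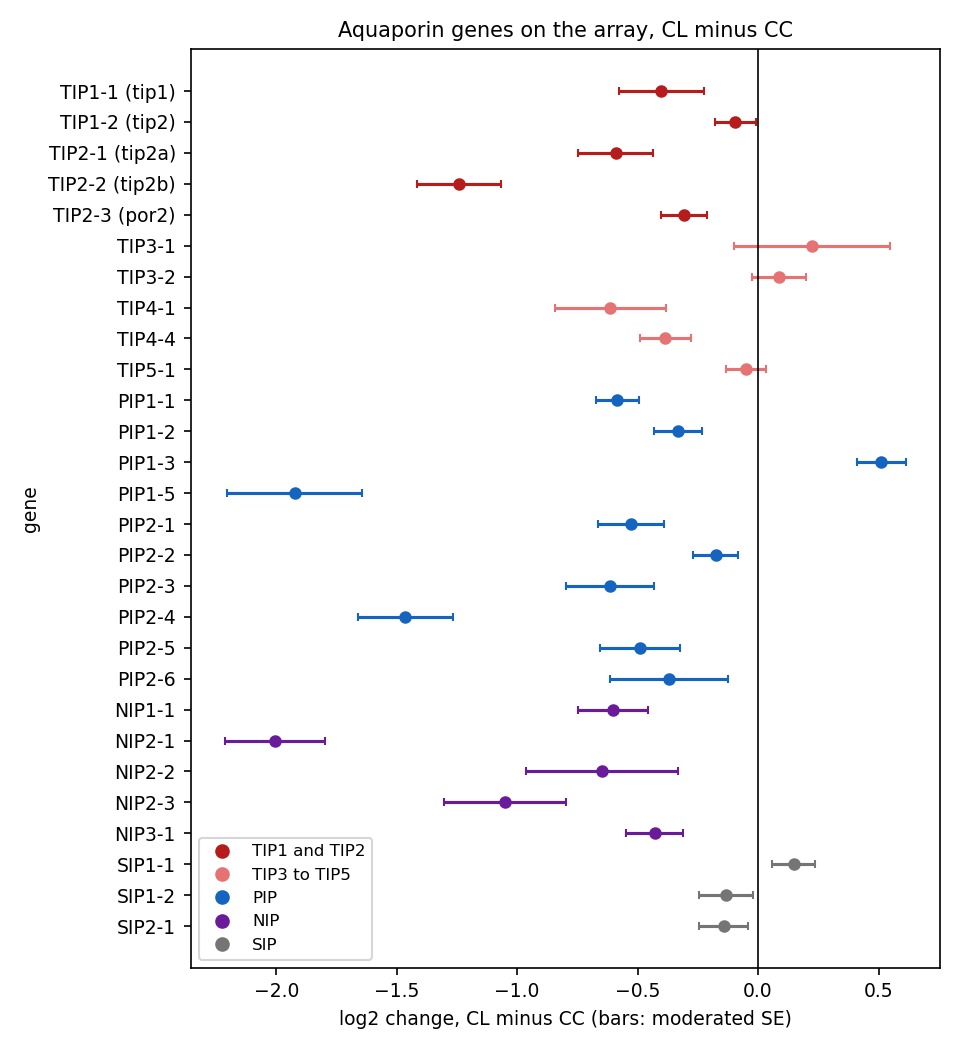
Log2 change (CL minus CC) of the 28 aquaporin genes on the array, with the moderated SE as bars, coloured by subfamily. The TIP1 and TIP2 genes lie between -1.24 and -0.09, the 10 PIP genes between -1.92 and 0.51, the 5 NIP genes between -2.01 and -0.43 and the 3 SIP genes between -0.14 and 0.15.

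Other genes of the vacuole gave mixed values. Of the 2 proton pump genes, H+-PPase (vpp1, NCBI gene 542328), a pyrophosphatase that energises the vacuolar membrane, fell by 0.60 (SE 0.09). It read 12.18, 11.95 and 11.99 in CL and 12.66, 12.67 and 12.58 in CC, and both of its probe sets were called lower. The other, vpp3 (NCBI gene 542327), had a log2 change of 0.08 (SE 0.08). Of 8 genes for vacuolar enzymes by name, 2 fell and 0 rose, a share near the 20.2% of all genes that fell. They were the acid invertase gene ivr2 at -3.64 (SE 0.82) and see2a, a legumain-like protease gene, at -0.79 (SE 0.17). That count was 4 without CL replicate 1 and 1 without CL replicate 2 or CL replicate 3.

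Genes of cell wall growth, which accompanies vacuolar enlargement, were read against the same 20.2% of all genes that fell and 18.9% that rose. Of 12 expansin genes 5 fell, 1 rose and 6 did not pass. Of 12 cellulose synthase genes 8 fell and 0 rose, and of 10 tubulin genes 7 fell and 0 rose. Their median log2 changes were -0.45 for expansins, -0.92 for cellulose synthases and -0.88 for tubulins. Without CC replicate 1, 8 expansin genes fell. The strongest called members were expa1 at -2.71 (SE 0.14), CesA-2 at -2.32 (SE 0.27) and tua5 at -2.10 (SE 0.29).

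Some markers of leaf cell types also differed between the sections. The vascular list held 1 gene, the sucrose transporter gene sut1, which fell by 0.87 (SE 0.23), with 9.62 to 10.35 in CL against 10.46 to 10.99 in CC. Of 3 epidermis and wax markers, gl1 fell by 1.73 (SE 0.21), gl15 fell by 0.33 (SE 0.09) and gl8 had -0.11 (SE 0.22). The gl15 probe set read only 3.18 in CL and 3.50 in CC, at the dim end, which lay lower in CL as a whole. Of 5 mesophyll markers 2 rose, 0 fell and 3 did not pass. Those that rose were ppt1 and NCBI gene 541677, while the gene matched by ppdk1 did not pass. Of 3 bundle sheath markers 1 fell, 0 rose and 2 did not pass. Of all 1108 genes 20.2% fell and 18.9% rose, and lists this short say little beside those shares. The part of these cell types in the TIP differences was not tested.

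Likeness of pattern was measured as Pearson's r over the 6 arrays against 257 other named genes with a log2 range of at least 1. With arrays in 2 separated sections, r mostly reflects the shared difference between sections and is a description. The pattern of tip2b was most like those of PIP2-4 (r = 0.999), plt2, a phospholipid transfer protein gene (0.997), and CesA-2 (0.986). PIP2-4 read 7.82, 7.28 and 7.45 in CL and 9.20, 8.66 and 9.09 in CC, with the same order of arrays inside each section as tip2b. For tip1 they were LAC1, a laccase by name (0.951), MYB38_1 (0.932) and HMT-2, a homocysteine methyltransferase (0.873). For tip2a they were zrp4, an O-methyltransferase (0.924), LAC1 (0.898) and bk2, a COBRA-like gene of the secondary wall (0.895). For por2 they were EXPA5 (0.954), bk2 (0.926) and the haemoglobin gene Hb2 (0.922). The dim tip2 varied only between 3.10 and 3.33 over all arrays and gave TIP4-1 (0.970), cgs1 (0.821) and NIP2-2 (0.816).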

How the data were processed

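The authors deposited RMA values on a log2 scale. The submitters' processing notes name RMA, Affymetrix Expression Console and limma, without versions. RNA (250 ng) was labelled from the 3' end, per the labels' protocols. No scanner file was used, so background was not tested per probe set, and precision is limited by the number of arrays; 0 sample columns were unused. Gene names came from an older platform annotation, updated by gene ID through RefSeq, where 1060 of the 1108 genes were found. Sequences of the members were not used here.

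CL was compared with CC in limma (version 3.58.1, R 4.3.3), with a linear model and empirical Bayes, no block and no filter, over all 17555 probe sets. For gene lists the fit used 1 probe set per gene, the one with the highest mean, so SEs differ slightly from those over all probe sets. P-values were adjusted by Benjamini-Hochberg over all probe sets or all 1108 genes, with a threshold of 0.05. The script was tested on simulated data.

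The members and lists were chosen with earlier results of these data known. Named were all members, the 3 largest called changes of each list (otherwise the smallest p), and the 3 genes most like each member; PIP1-3, vpp3 and the other TIP genes were added after their values were seen, and of the expansin, cellulose synthase and tubulin lists the leading gene is given. Over all probe sets, same-numbered arrays of the sections deviated in opposite directions (correlations -0.54, -0.35 and -0.39, against -0.01 to 0.39 for other pairs). With deviations taken from means of 3 arrays, this cannot show whether equal numbers mark the same plants. The main fit left the numbers out. Alternatives were a replicate block, an intensity trend, robust variance, median centring, a further quantile normalization, leaving out dim probe sets, an adjusted p of 0.01, averaging the probe sets of each gene, and each array left out.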

Additional observations from a re-analysis of the deposited data

How the results depend on the processing

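All 5 members kept a negative change in every alternative in which they were tested, except tip2 after a further quantile normalization (0.044). There, por2 was at -0.18. The replicate block, intensity trend, robust variance, stricter threshold and leaving out dim probe sets cannot alter a member's log2 change. Only median centring, the further quantile normalization and the left-out arrays could move it. The count of members called lower was 1 with the replicate block, at an adjusted p under 0.01 and without the dimmest 50% of probe sets, which leaves out tip2, tip2b and por2. It was 1 to 2 when an array was left out. The replicate block spends degrees of freedom on numbers whose pairing of the arrays is not known. With it, 1020 probe sets were higher and 850 lower in CL, with 3 PIP genes lower and 0 higher, 1 NIP gene lower, 0 vacuolar enzyme genes lower and 0 expansin genes higher. At an adjusted p under 0.01 these were 1126, 867, 3, 0, 1, 0 and 0, with 2 expansin genes lower. Without the dimmest 50%, 1656 probe sets, 2 NIP genes, 4 tubulin genes and 1 vacuolar enzyme gene were lower and 1 vacuolar enzyme gene was higher; fewer genes were tested. A vacuolar enzyme gene was higher also with the intensity trend and after a further quantile normalization (1 each). Median centring gave 8 expansins lower, and averaging the probe sets of each gene 0 expansins higher; the cause was not tested.

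The mean change of the TIP1 group was -0.40 without the dimmest 25% or 50%, which removes tip2. The TIP2 minus TIP1 difference was then -0.31 or -0.19, and the TIP2 change -0.59 without the dimmest 50%. Of settings chosen after seeing the data, counting tip2 in the TIP2 group gave -0.40 for TIP1, -0.56 for TIP2 and -0.16 for the difference, keeping brighter members only gave -0.40 and -0.31, and leaving out tip2b gave -0.45 for TIP2 and -0.20 for the difference.

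With 1 array left out, the counts ranged from 1308 to 2818 probe sets higher and 1082 to 2865 lower (both counts fell by over 1.5 times without CL replicate 2, CL replicate 3, CC replicate 2 or CC replicate 3), 3 to 7 PIP genes lower and 0 to 1 higher, 1 to 4 NIP genes lower, 1 to 4 vacuolar enzyme genes lower and 0 to 1 higher, 5 to 8 expansins lower, 7 to 9 cellulose synthases lower and 6 to 9 tubulins lower. Group changes ranged from -0.31 to -0.20 for TIP1, -0.77 to -0.66 for TIP2 and -0.53 to -0.41 for their difference. Of all 406 values recomputed, 340 moved by less than the replicate SD or, for counts, by at most 1.5 times. These include log2 changes under settings that could not alter them. Values of tip2 and por2 lie near the dim end of the arrays, where signal over background was not measured.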
